A study of Homo sapiens with 12 samples.

Results

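The 7 genes described here encode S100 calcium-binding proteins: S100A4, S100A6, S100A8, S100A9, S100A10, S100A11 and S100A12. They were taken by gene name from a table of 58735 genes, and each name matched 1 row. RNA had been sequenced from TAMs in 4 groups of 3 libraries. The TAMs were THP-1 cells, a human monocytic leukemia line, that had been turned into macrophages with PMA, a phorbol ester. In all 12 libraries they had been cocultured with AsPC-1 cells, a human pancreatic cancer line, which sat in the other chamber of a Transwell insert so that the cells shared medium without mixing. AsPC-1 cells carried an empty vector in the control group and lentiviral MMP28, a secreted metalloproteinase, in the OE-MMP28 group. The anti-IL-8 group and the anti-VEGFA group received OE-MMP28 cells plus a neutralizing antibody against IL-8 or VEGFA, and none of the 4 groups was given a control antibody. MMP28 was raised in the AsPC-1 cells, which are not among these 12 libraries, so its level in TAMs does not check the labels. The labels do not say whether the 3 libraries of a group came from separate cultures, so the p-values measure only the spread between these libraries. In bulk RNA, fewer expressing cells and less RNA per cell cannot be told apart.

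S100 proteins are small proteins with paired EF-hand motifs, which bind calcium and then change shape to expose a surface for partner proteins. S100A8 and S100A9 pair as calprotectin, an abundant product of neutrophils and blood monocytes that holds calcium and zinc, and S100A12 is a related granulocyte protein; released, these 3 act on the receptors TLR4 and RAGE. S100A4 and S100A6 bind cytoskeletal and signalling partners such as nonmuscle myosin, S100A10 forms a tetramer with annexin A2 at the membrane without needing calcium, and S100A11 binds annexins A1 and A2.

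All 7 genes lie on chromosome 1, where the cluster of S100 genes sits, and all are protein-coding. S100A9 spans chr1:153357854-153361027 on the plus strand. The other genes are on the minus strand: S100A12 at chr1:153373706-153375649, S100A8 at chr1:153390032-153391188, S100A6 at chr1:153534599-153536244, S100A4 at chr1:153543613-153550136, S100A11 at chr1:152032506-152047907 and S100A10 at chr1:151982915-151994390. The table names no genome build. Its gene identifiers all belong to GENCODE 29, a GRCh38 annotation, and 58724 of 58735 genes had the same start and end there. Exon lengths ran from 518 bases in S100A12 to 1543 bases in S100A10, so all 7 were short transcripts. S100A6 shared 23 exon bases with BX470102.1 on the opposite strand, and the other 6 shared none with another gene.

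RefSeq promoter windows on GRCh38.p14 were found for all 7 genes. The 150 bases upstream of the start site are shown for the 4 abundant genes (S100A4, S100A6, S100A10 and S100A11), which had the same sign of deviation in 8 of 12 libraries, and for S100A9, which was expressed at a low level. Capitals mark TATAAA and GGGCGG on either strand.
S100A4, chr1:153545807-153545956, minus strand: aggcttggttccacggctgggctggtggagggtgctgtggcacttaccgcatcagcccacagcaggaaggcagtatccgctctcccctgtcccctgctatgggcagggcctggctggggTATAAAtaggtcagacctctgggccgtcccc
S100A6, chr1:153535992-153536141, minus strand: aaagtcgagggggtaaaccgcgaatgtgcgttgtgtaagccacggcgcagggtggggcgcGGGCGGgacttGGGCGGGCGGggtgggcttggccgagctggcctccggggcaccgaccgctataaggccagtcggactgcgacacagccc
S100A10, chr1:151993860-151994009, minus strand: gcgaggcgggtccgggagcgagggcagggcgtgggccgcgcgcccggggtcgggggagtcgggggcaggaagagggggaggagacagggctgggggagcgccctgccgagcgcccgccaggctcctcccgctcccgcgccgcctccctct
S100A11, chr1:152037005-152037154, minus strand: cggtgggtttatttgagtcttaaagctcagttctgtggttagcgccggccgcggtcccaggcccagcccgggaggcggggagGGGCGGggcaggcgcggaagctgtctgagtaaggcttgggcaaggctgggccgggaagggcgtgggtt
S100A9, chr1:153357704-153357853, plus strand: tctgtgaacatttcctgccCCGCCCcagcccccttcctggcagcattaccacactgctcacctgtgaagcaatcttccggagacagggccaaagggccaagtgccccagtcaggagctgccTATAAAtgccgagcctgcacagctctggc

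TATAAA, the core letters that place the start site of many regulated genes, occurred in S100A4, S100A9 and S100A12 and in 2 of the 3 windows RefSeq gave for S100A8, against 6.71% of all 35116 promoter windows of the same length. These letters began 31 bases before the start in S100A4, 29 bases before it in S100A9 and only 8 bases before it in S100A12. The 2 windows of S100A8 overlap and held the same site, 29 bases before 1 start and 126 bases before the other. GGGCGG, a GC box, was present in S100A6 at 3 overlapping or neighbouring places, in S100A11 and in S100A9, against 36.8% of all windows. The window of S100A10 held neither, and 81.3% of its bases were G or C. TGANTCA, the AP-1 motif, occurred in S100A12 alone, against 4.17% of all windows, and TTGCNNAA, a C/EBP motif, in S100A11 and S100A12, against 5.02%. Both were searched on both strands. The 4 abundant genes thus shared neither box, which describes these letters only.

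Library totals ran from 15852346 to 18701195 counts, of which mitochondrial genes took 6.92% to 17.8%. The macrophage label was checked against 10 marker genes. Of these, 9 passed the filter on low counts, and the list's summed level ran from 2311 to 3830 CPM, the counts of a gene scaled to a common library size with TMM, over the 12 libraries. The exception was CD68, with 0 to 5 counts in every library; 85.8% of its exon bases are shared with other annotated genes, and the part of this in the low count was not tested. Of 13 epithelial markers, used to look for carried-over AsPC-1 RNA, only 3 passed the filter on low counts, and the whole list summed to between 3.41 and 7.59 CPM. EPCAM was at 0 in all libraries and KRT19 had at most 4 counts. All 7 S100 genes together took 0.125% to 0.221% of a library's counts. In the OE-MMP28 group, replicates 2 and 3 lay at opposite ends for S100A4, S100A6, S100A10 and S100A11, and anti-VEGFA replicates 1 and 2 did the same for S100A6, S100A10 and S100A11, so fits that left out 1 library at a time are given beside the results.

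The 7 genes differed far more from each other than their group means did. Levels are compared here in FPKM, the authors' length-scaled expression values. S100A11 was the highest, with a median of 1158 FPKM over 12 libraries and a range of 877 to 1907. S100A6 followed at 386.8 (177 to 526), S100A4 at 316 (213 to 385) and S100A10 at 62.5 (43.8 to 89.7). The calgranulins were low: S100A9 had a median of 15.6 FPKM (10.9 to 18.6), S100A8 1.53 (0.522 to 2.98) and S100A12 0.113 (0 to 0.494). The TAMs therefore held the broadly expressed S100 genes at high levels and the calgranulins at low ones. Neighbours in this order were separate over all 12 libraries, with 1 exception. The ranges of S100A6 and S100A4 overlapped, although S100A6 was the higher in 11 of 12 libraries. S100A9 exceeded its calprotectin partner S100A8 by 10.2-fold in the medians.

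Of the 7 genes, 6 could be tested, and 0 passed the test in any of the 6 comparisons between groups. The test was edgeR's quasi-likelihood test on counts over 16046 genes, with Benjamini-Hochberg adjustment at 0.05. S100A12, with 0 to 4 counts per library, did not pass the filter on low counts and was not tested. The count stayed at 0 of 6 at an unadjusted p of 0.05, the threshold the study's methods name, and with DESeq2 and with limma voom. For OE-MMP28 against control, 3.16% of all tested genes passed at the adjusted threshold and 14.5% at the unadjusted one. For anti-IL-8 against OE-MMP28 these shares were 0% and 29.3%, where the unadjusted share is 4700 genes and DESeq2 called 2259 genes after adjustment but voom called 0. For anti-VEGFA against OE-MMP28 they were 0.343% and 18.8%. Against control, anti-IL-8 gave 20.7% and 35.9%, and anti-VEGFA gave 11% and 27%. Between the antibodies they were 0.199% and 15%. Over 6 genes, a count of 0 is not far from the smaller of these shares, so it is no result about these genes there; the share of all genes was highest for anti-IL-8 against control.

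The intervals were wide enough to leave room for moderate changes. For S100A4, S100A6, S100A9, S100A10 and S100A11, the 95% confidence intervals of the log2 fold change over the 6 comparisons lay within -0.79 and 1.01. For S100A8 they reached from -1.62 to 1.47. A 2-fold change lay inside 2 of 30 intervals of the 5 more abundant genes, both of S100A6, and inside 6 of 6 intervals of S100A8.

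**Figure D1:**
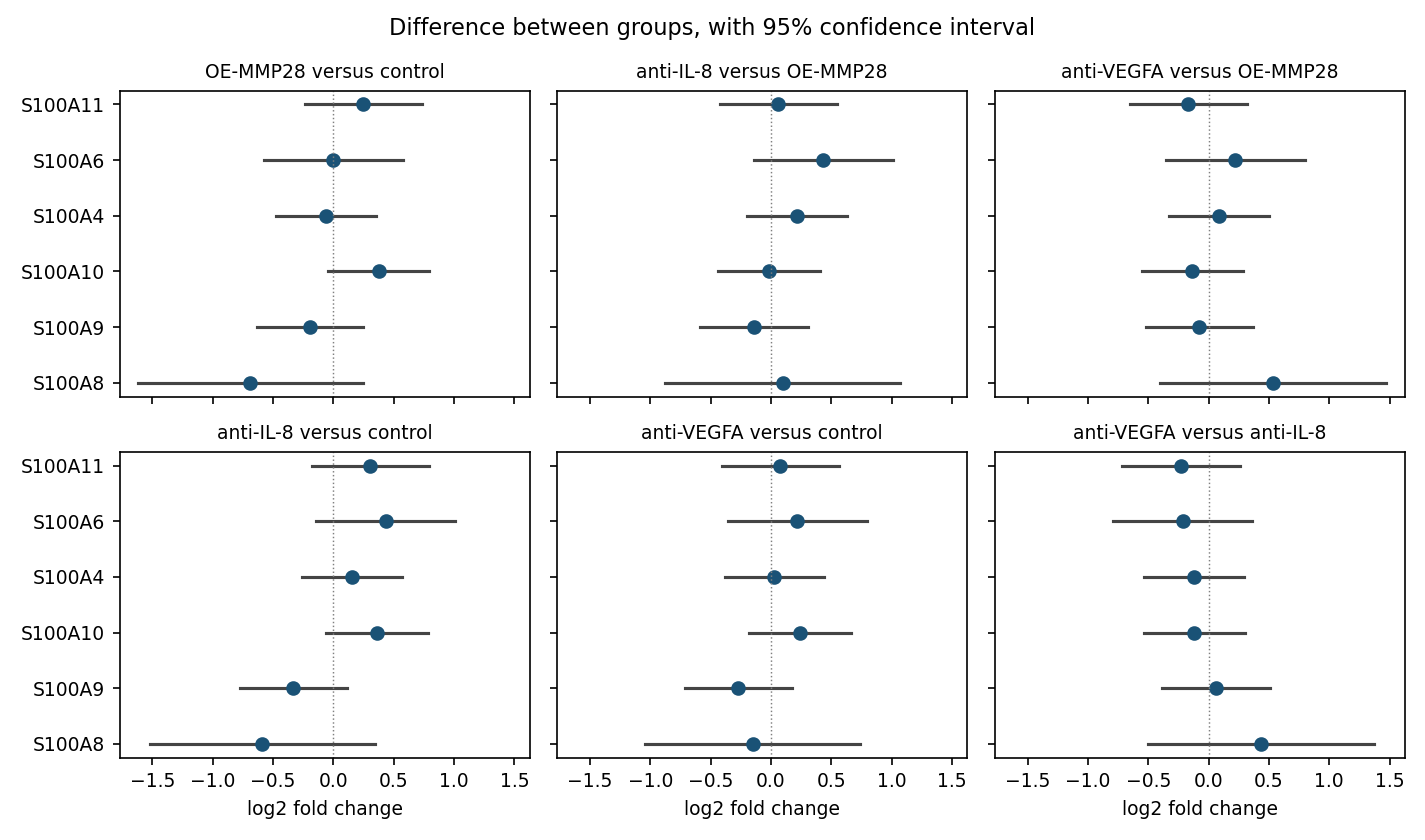
Log2 fold change (x axis) of the 6 tested S100 genes in each of the 6 comparisons, as points with 95% confidence intervals from the edgeR fit. Every interval spans 0, and those of S100A8 are the widest, from -1.62 to 0.24 for OE-MMP28 against control.

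S100A11, which binds annexins A1 and A2, was the most abundant. Its control libraries lay close together at 800.6, 790.5 and 786.2 CPM. The OE-MMP28 libraries had 785.5, 719.3 and 1316 CPM, the anti-IL-8 libraries 1114, 962.1 and 863.2 CPM, and the anti-VEGFA libraries 606.8, 1201 and 701.9 CPM. The anti-IL-8 libraries were all above the control libraries, as were those of 23.4% of all genes tested, while 20.7% of all genes were called in that comparison; in the other groups 1 library was high and the other two were below every control library. The log2 fold change against control was 0.31 ± 0.23 (SE) for anti-IL-8, with an adjusted p of 0.358 by edgeR's quasi-likelihood test, and 0.25 ± 0.23 for OE-MMP28, with an adjusted p of 0.687. When 1 library at a time was left out, the OE-MMP28 value ran from -0.07 to 0.41, and it was at its lowest without the high OE-MMP28 replicate 3.

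S100A6, known as calcyclin, had 360.1, 346.9 and 289.7 CPM in control. The OE-MMP28 group spread from 174.2 CPM in replicate 2 to 518.6 CPM in replicate 3, with 304.1 CPM in replicate 1. The anti-IL-8 libraries had 492.3, 452.3 and 400.6 CPM and the anti-VEGFA libraries 265.5, 495.2 and 400.1 CPM. All 3 anti-IL-8 libraries were above all control libraries, again beside 23.4% of all genes, and the OE-MMP28 libraries lay on both sides of every other group. The group means of OE-MMP28 and control were alike, 332 ± 174 and 332 ± 37.4 CPM (SD, n = 3). The log2 fold change of anti-IL-8 was 0.43 ± 0.27 (SE) against control, with an adjusted p of 0.269 in edgeR's test, and 0.43 ± 0.27 against OE-MMP28, with an adjusted p of 0.298. The second comparison rested on 1 library: without OE-MMP28 replicate 3 the log2 fold change was 0.92 and the adjusted p 0.0110, in a fit that called 4183 genes, 26.1% of all tested, where the fit of all libraries called 0. Without OE-MMP28 replicate 2 the log2 fold change was 0.12. In the first, S100A6 passed in edgeR's test when no filter on low counts was used (adjusted p 0.0405), where 9.71% of all genes were called. It also passed when the 2 groups were fitted alone (adjusted p 0.00111), where 37.8% were called.

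S100A10, the partner of annexin A2, gave the lowest p among the 6 tested genes of the 7. Control libraries had 94.6, 79.8 and 83.0 CPM and OE-MMP28 libraries 99.995, 93.7 and 140.4 CPM. The highest control library was just above the lowest OE-MMP28 library. The log2 fold change of OE-MMP28 against control was 0.38 ± 0.20 (SE), with an unadjusted p of 0.0765 and an adjusted p of 0.416 in edgeR's test. Anti-IL-8 libraries had 125.6, 111.4 and 93.2 CPM, a log2 fold change of 0.36 ± 0.20 against control (adjusted p = 0.206). Anti-VEGFA libraries had 68.8, 134.3 and 101.3 CPM, which included both the lowest library and one of the highest. Over fits that left out 1 library at a time, the log2 fold change against control ran from 0.18 to 0.49 for OE-MMP28, from 0.28 to 0.47 for anti-IL-8 and from -0.01 to 0.46 for anti-VEGFA. Fitted on the anti-IL-8 and control libraries alone, S100A10 passed with an adjusted p of 0.00510 and S100A11 with 0.0135 in edgeR's test. That fit called 37.8% of all tested genes.

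S100A4, which binds nonmuscle myosin, had the narrowest range of log2 fold changes over the 6 comparisons among the 6 tested genes in this fit, from -0.12 to 0.21. Its group means were 312 ± 43.6 CPM in control, 299 ± 86.7 in OE-MMP28, 346 ± 46.2 in anti-IL-8 and 318 ± 71.8 in anti-VEGFA (SD, n = 3). The libraries of every group overlapped with those of every other. The lowest adjusted p was 0.488 in edgeR's test, for anti-IL-8 against OE-MMP28. Leaving out 1 library moved that value between 0.04 and 0.47, with a lowest adjusted p of 0.0727.

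S100A9 and S100A8, the calprotectin pair, were the only members of the 7 whose mean was highest in control. S100A9 had 176, 152 and 185 counts in control, 182, 109 and 159 in OE-MMP28, 145, 121 and 114 in anti-IL-8 and 116, 113 and 203 in anti-VEGFA. Its log2 fold change against control was -0.19 ± 0.21 (SE) for OE-MMP28, -0.33 ± 0.21 for anti-IL-8 and -0.27 ± 0.21 for anti-VEGFA, with adjusted p-values from 0.267 to 0.735 in edgeR's test. The groups overlapped in all 3 comparisons. S100A8 had 35, 28 and 37 counts in control and 21, 17 and 24 in OE-MMP28, so the OE-MMP28 libraries were all below control, as were those of 11.6% of all genes tested, while 3.16% of all genes were called there. The log2 fold change was -0.69 ± 0.44 (SE) with an adjusted p of 0.526, and -0.85 to -0.56 with 1 library left out. In anti-IL-8 it had 28, 20 and 14 counts. In anti-VEGFA it ranged from 9 through 26 to 57 counts, a standard deviation of 1.15 on the log2 CPM scale, the widest of the 6 tested genes in any group. The ratio of S100A8 to S100A9 in FPKM ran from 0.0445 to 0.161, both extremes being in the anti-VEGFA group. S100A12 was at the limit of detection in all groups, with 3, 1 and 1 counts in control, 1, 0 and 3 in OE-MMP28, 4, 1 and 0 in anti-IL-8 and 1, 1 and 4 in anti-VEGFA, so a difference was not detectable at this depth. A count of 0 allows up to 3 counts, which is 0.175 CPM in OE-MMP28 replicate 2 and 0.195 CPM in anti-IL-8 replicate 3, for counting error only.

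The 4 abundant genes varied more within groups than most genes of such abundance. The standard deviation within groups, on the log2 CPM scale, was 0.47 for S100A6, 0.36 for S100A11 and 0.31 for both S100A10 and S100A4, against a median of 0.17 over all tested genes with a mean log2 CPM of at least 6. For each of the 4 genes it was smaller in control and anti-IL-8, from 0.013 for S100A11 in control to 0.22 for S100A10 in anti-IL-8, than in OE-MMP28 and anti-VEGFA, where it ran from 0.31 for S100A10 to 0.79 for S100A6, both in OE-MMP28. The groups differed in the same way over all tested genes with a mean log2 CPM of at least 6. Their median was 0.087 in control, 0.11 in anti-IL-8, 0.20 in OE-MMP28 and 0.17 in anti-VEGFA, so this order is not particular to the S100 genes. In 8 of 12 libraries all 4 genes deviated from their means in the same direction. Averaged over them, a library's deviation from the mean of all 12 was -0.48 in OE-MMP28 replicate 2 and 0.49 in replicate 3 of the same group. It was -0.48 in anti-VEGFA replicate 1, 0.39 in replicate 2 and 0.02 in replicate 3. In anti-IL-8 it was 0.37, 0.18 and 0.00, and in control -0.01, -0.12 and -0.24. The 4 libraries with mixed signs were control replicates 1 and 2, anti-IL-8 replicate 3 and anti-VEGFA replicate 3. In the last, S100A11 had -0.30 and S100A4 0.21.

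Short transcripts as a set moved with them. Over the 1311 genes of lowest exon length, up to 2152 bases, the median deviation was -0.34 in OE-MMP28 replicate 2, 0.23 in OE-MMP28 replicate 3, -0.16 in anti-VEGFA replicate 1, 0.21 in anti-VEGFA replicate 2 and 0.23 in anti-IL-8 replicate 1. The mitochondrial share of counts was 11.8%, 12.3%, 6.92%, 17.8% and 11.3% in the same 5 libraries. Its part in these deviations was not tested. With a correction of each library for gene length, the standard deviation within groups was 0.37 for S100A6, 0.26 for S100A11 and 0.22 for S100A10 and S100A4, against 0.16 for the genes with a mean log2 CPM of at least 6. None of the 6 was called with this correction or with the mitochondrial share as a covariate, although some directions turned. S100A11 in anti-VEGFA against control had a log2 fold change of 0.08, of -0.0025 with the length correction and of -0.28 with the mitochondrial covariate. The part of RNA quality in this spread was not tested.

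**Figure D2:**
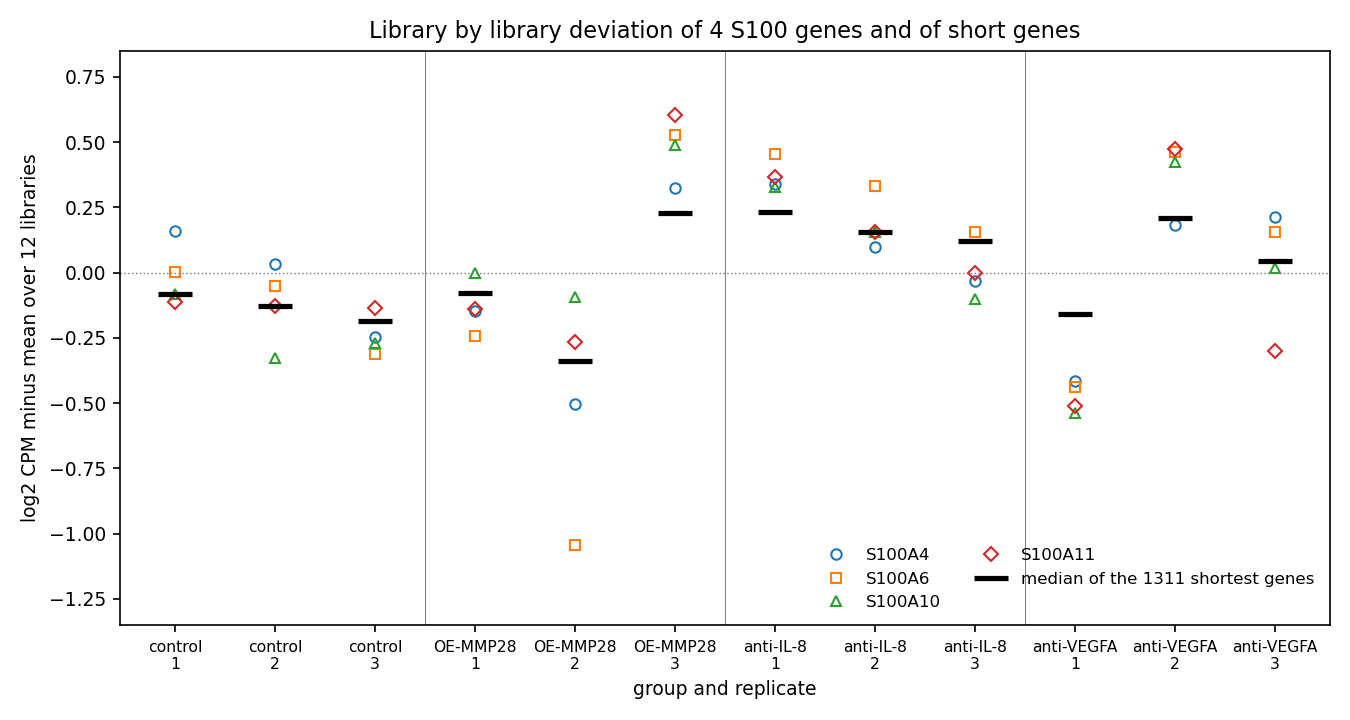
Deviation of log2 CPM from the mean over 12 libraries (y axis) for S100A4, S100A6, S100A10 and S100A11 in each library, with the median of the 1311 shortest tested protein-coding genes as a black bar. OE-MMP28 replicate 2 and anti-VEGFA replicate 1 lie low and OE-MMP28 replicate 3, anti-IL-8 replicate 1 and anti-VEGFA replicate 2 lie high for both.

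The genes whose profile over the 12 libraries was nearest to an S100 gene were looked up among 5700 protein-coding genes, by the root mean square difference of log2 CPM after centring each gene. This is a description only, and the part of depth and gene length in it was not tested. S100A11 was nearest to the ribosomal protein genes RPL19 (0.063) and RPL12 (0.066) and to LST1 (0.067). S100A6 was nearest to COX5B (0.066), UQCC2 (0.088) and CIAO2B (0.097), and S100A10 to POMP (0.095), RPL24 (0.10) and COX6C (0.11). S100A4 was nearest to RNF181 (0.11), VAMP8 (0.12) and RPL35A (0.12). S100A9 had CXCL3 (0.12), CCL1 (0.14) and SEC11C (0.14) as its neighbours. For S100A8 the nearest candidates were CCL13 (0.31), MT2A (0.35) and TIMP1 (0.39). Among the 6, S100A10 and S100A11 were the closest pair (0.14), and S100A8 and S100A9, which encode the subunits of 1 complex, lay 0.42 apart. The candidates had a mean of at least 10 CPM, so no gene as low as S100A8 was compared. S100A9, with group means from 7.97 CPM in anti-IL-8 to 10.0 CPM in control, also lay at or below that limit. The part of counting noise in the distances of S100A8 and S100A9 was not tested.

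Of 14 other genes with S100 in their name, 7 were measured well enough to test. They included S100PBP, which encodes a binding protein of S100P and not an S100 protein. In edgeR's test S100A16 was the only gene of the 7 that passed. With DESeq2, S100A13 also passed in anti-IL-8 against control, at a log2 fold change of -0.55 and an adjusted p of 0.0486, against 0.0544 with edgeR and 0.0598 with voom. S100A16 passed against control only. Between the groups with OE-MMP28 cells, edgeR and voom called 0 of the 7, as did DESeq2, and 0 to 3 had an unadjusted p under 0.05. In those comparisons edgeR called 0% to 0.343% of all genes. Against control, 5 of the 7 had an unadjusted p under 0.05 by edgeR in OE-MMP28, 3 in anti-IL-8 and 2 in anti-VEGFA. The shares of all genes there were 14.5%, 35.9% and 27%. The control libraries had 108.3, 99.8 and 101.1 CPM of S100A16. OE-MMP28 libraries had 48.3, 49.7 and 71.3 CPM, anti-IL-8 libraries 69.9, 68.8 and 76.2 CPM, and anti-VEGFA libraries 53.4, 74.2 and 53.8 CPM. All 9 libraries with OE-MMP28 cells were below all 3 control libraries. For the OE-MMP28 group alone, 11.6% of all genes tested were below control in this way. In edgeR's test S100A16 fell by 0.87 ± 0.16 on the log2 scale (SE) in OE-MMP28 (adjusted p = 0.00254), by 0.53 ± 0.16 in anti-IL-8 (adjusted p = 0.0263) and by 0.77 ± 0.16 in anti-VEGFA (adjusted p = 0.00481). These 3 comparisons share the control libraries and called 3.16%, 20.7% and 11% of all genes, in the same order. The calls in OE-MMP28 and anti-VEGFA were kept with any 1 library left out; that in anti-IL-8 was lost without any 1 of the 3 control or 3 anti-IL-8 libraries, with adjusted p up to 0.115. S100A16 was 56.4 ± 12.9 CPM in OE-MMP28 and 71.6 CPM in anti-IL-8, a difference that did not pass (adjusted p = 0.155). The low S100A1, S100A2 and S100A13, named after their values were seen, had log2 fold changes of -1.20, -1.37 and -0.68 in OE-MMP28 against control with adjusted p-values of 0.0715, 0.165 and 0.0811, and S100P had 1.55 with an adjusted p of 0.117. S100P is also an epithelial marker. The median log2 fold change of the 7 tested genes, S100PBP among them, was -0.68 there, against 0.02 for all genes.

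Of 9 intracellular partners of S100 proteins, 8 were tested. For anti-IL-8 against control edgeR called 1 higher and 1 lower, 2 of 8 beside 20.7% of all genes, and in the other 5 comparisons it called 0, where the share of all genes was between 0% and 11%. In those 5 comparisons, 1 to 3 genes had an unadjusted p under 0.05, voom called 0, and DESeq2 called 2 for anti-IL-8 against OE-MMP28. ANXA1, the annexin bound by S100A11, fell by 0.78 ± 0.13 on the log2 scale (SE; adjusted p = 0.000935 in edgeR's test), from 669.2, 616.8 and 584.9 CPM in control to 368.8, 393.6 and 324.3 CPM in anti-IL-8. ANXA2, the annexin bound by S100A10, rose by 0.42 ± 0.14 (adjusted p = 0.0409), from 251.6, 236.2 and 237.3 CPM to 354.5, 309.4 and 306.7 CPM. Anti-IL-8 and control did not overlap for either. All anti-IL-8 libraries were above control for 23.4% of all genes tested, as for ANXA2. The share below control, as for ANXA1, was not taken. The ANXA2 call was lost with library totals in place of TMM, without any 1 of the 3 control or 3 anti-IL-8 libraries and without OE-MMP28 replicate 1, with adjusted p up to 0.144; that of ANXA1 was kept throughout. In OE-MMP28 against control ANXA2 had the same log2 fold change, 0.42 ± 0.14, with an adjusted p of 0.135. ANXA11 (0.27, adjusted p = 0.195), CACYBP, which binds S100A6 (0.04, adjusted p = 0.853), and MYH9, the heavy chain of nonmuscle myosin (0.20, adjusted p = 0.321), were not called in anti-IL-8 against control.

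All 8 receptors and surface partners were tested. Against control, 2 were higher and 1 lower in OE-MMP28, beside 3.16% of all genes called, 3 were higher and 2 lower in anti-IL-8, beside 20.7%, and 2 were higher and 1 lower in anti-VEGFA, beside 11%. Between the groups with OE-MMP28 cells edgeR called 0, where 2 genes had an unadjusted p under 0.05 for anti-IL-8 against OE-MMP28, 3 for anti-VEGFA against OE-MMP28 and 0 between the antibodies; DESeq2 called 2, 0 and 0 and voom called 0 in each. CD14, the co-receptor of TLR4, rose from 820.9, 650.4 and 783.7 CPM in control to 1226, 933.3 and 1771 CPM in OE-MMP28, a log2 fold change of 0.80 ± 0.19 (SE; adjusted p = 0.0272 by edgeR). It rose by 1.07 ± 0.20 in anti-IL-8 (adjusted p = 0.00166) and by 0.88 ± 0.19 in anti-VEGFA (adjusted p = 0.00790). LY96, the MD-2 subunit bound to TLR4, rose by 1.02 ± 0.17 in OE-MMP28 (adjusted p = 0.00114) and by 0.68 ± 0.17 in anti-IL-8 (adjusted p = 0.0114). The CD14 call in OE-MMP28 was lost in both fits on log2 FPKM and without any 1 of the control libraries, OE-MMP28 replicate 1 or OE-MMP28 replicate 3, with adjusted p up to 0.174. TLR4 itself, the receptor of S100A8 and S100A9, fell by 0.56 ± 0.15 in anti-IL-8 (adjusted p = 0.0141) and had -0.13 in OE-MMP28 (adjusted p = 0.740) and -0.36 in anti-VEGFA (adjusted p = 0.114).

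AGER, which encodes RAGE, was low, with 66, 88 and 118 counts in control and 137, 294 and 164 in anti-VEGFA, where it rose by 1.15 ± 0.30 on the log2 scale (SE; adjusted p = 0.0197 by edgeR). That call was lost with the mitochondrial share as a covariate, on log2 FPKM and without control replicate 1, control replicate 2 or anti-VEGFA replicate 2; without the last the log2 fold change was 0.67. BSG, a surface receptor reported to bind S100A9, rose by 0.71 ± 0.20 in anti-IL-8 (adjusted p = 0.0215), a call lost without control replicate 2 or 3 or anti-IL-8 replicate 1 or 3 (adjusted p up to 0.0911). CD69, an activation antigen, fell by 1.73 ± 0.36 in OE-MMP28, fell by 2.49 ± 0.39 in anti-IL-8 and fell by 2.26 ± 0.38 in anti-VEGFA (adjusted p = 0.00910, 0.000427 and 0.000999) from a control level of 3.79 CPM. CD36, a scavenger receptor, was not called by edgeR in any comparison, with log2 fold changes from -0.27 to 0.08 and a lowest unadjusted p of 0.0591. With 1 library left out, the call of TLR4 in anti-IL-8 was lost without control replicate 1 or 2 or anti-IL-8 replicate 1 (adjusted p up to 0.0653). That of LY96 in anti-IL-8 was lost without control replicate 2 or anti-IL-8 replicate 1 (adjusted p up to 0.0609), that of CD14 in anti-VEGFA without control replicate 2 (adjusted p = 0.0595) and that of CD69 in OE-MMP28 without control replicate 2 or OE-MMP28 replicate 1 (adjusted p up to 0.0658).

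**Figure D3:**
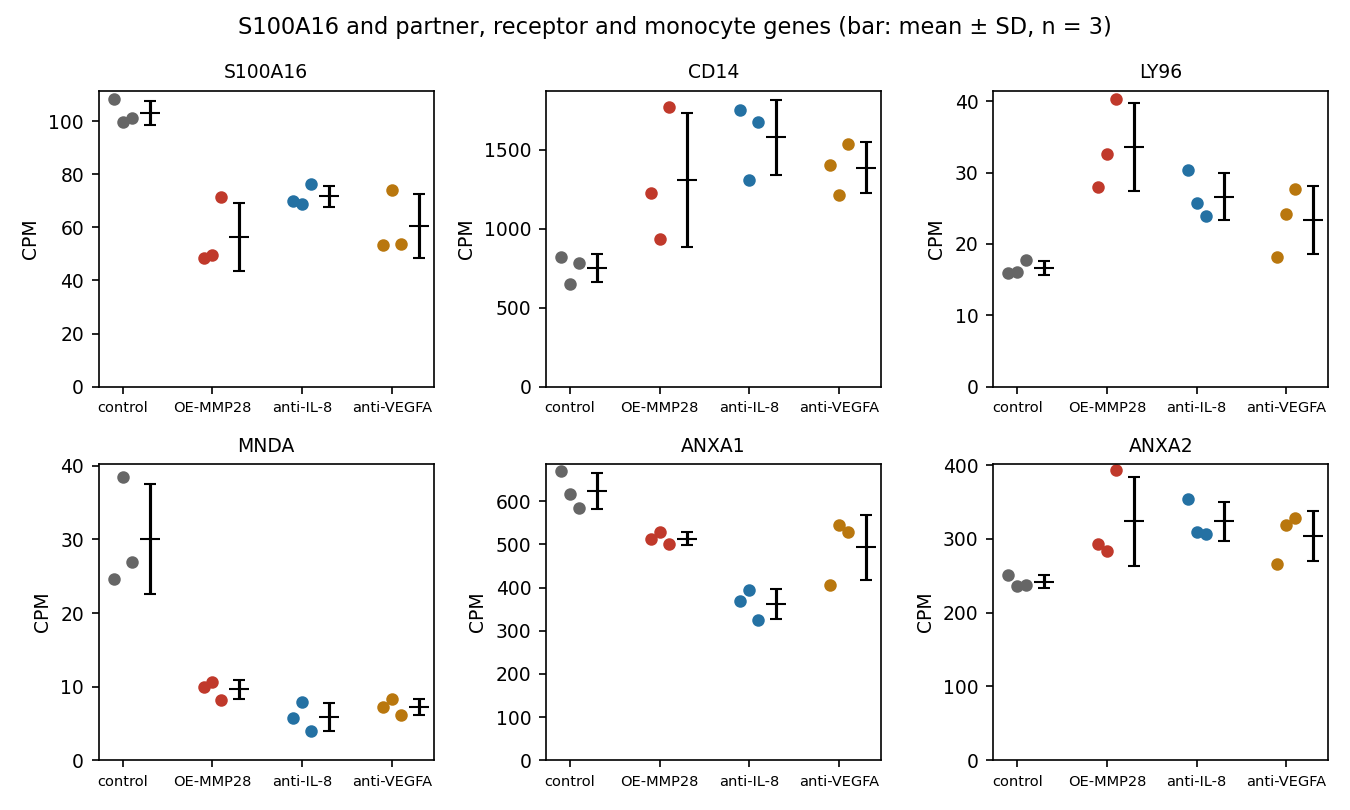
CPM per library (points) for S100A16, CD14, LY96, MNDA, ANXA1 and ANXA2 in the 4 groups, with the mean and SD of 3 libraries beside them; every y axis starts at 0. S100A16 and MNDA are lower and CD14 is higher in all 9 libraries with OE-MMP28 cells than in control, and ANXA1 is lowest in anti-IL-8.

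Genes that accompany S100A8 and S100A9 in myeloid cells were examined next, and their counts stand beside the same shares of all genes called against control, 3.16% in OE-MMP28, 20.7% in anti-IL-8 and 11% in anti-VEGFA. Of 7 genes of the phagocyte NADPH oxidase, to which calprotectin delivers arachidonic acid, CYBA alone passed, in 1 comparison, higher by 0.90 ± 0.28 on the log2 scale (SE) in anti-IL-8 than in control (adjusted p = 0.0336 by edgeR). That call was lost in both fits on log2 FPKM and without any 1 of the control libraries or of anti-IL-8 replicates 1 and 3, with adjusted p up to 0.120. In the other 5 comparisons edgeR and voom called 0 of the 7, 0 to 3 had an unadjusted p under 0.05, and DESeq2 called 0 to 2. Of 10 myeloid transcription factors, GFI1 fell by 0.50 in OE-MMP28 (adjusted p = 0.0310), CEBPA rose by 0.60 and SPI1, which encodes PU.1, by 0.68 in anti-IL-8 (adjusted p = 0.0248 and 0.0358), and KLF4 fell by 0.57 in anti-IL-8 (adjusted p = 0.0170) and by 0.65 in anti-VEGFA (adjusted p = 0.0127), all against control in edgeR's test. With 1 library left out, GFI1 held in 6 of 12 fits and was lost without any 1 of the control or OE-MMP28 libraries (adjusted p up to 0.172), and it was also lost with no filter and with the 2 groups alone. SPI1 held in 6 of 12, being lost without any 1 of the control or anti-IL-8 libraries (adjusted p up to 0.114), and was also lost on log2 FPKM and with the replicate block. CEBPA and KLF4 in anti-IL-8 each held in 8 of 12, being lost without control replicate 2 or 3 or anti-IL-8 replicate 1 or 3 (adjusted p up to 0.123 and 0.0735), and KLF4 in anti-VEGFA in 10 of 12, being lost without control replicate 2 or 3 (adjusted p up to 0.0698). Of 10 monocyte genes, 7 were tested. MNDA, a nuclear antigen of monocytes, fell in all 3 groups, from 24.6, 38.5 and 26.9 CPM in control to between 4.02 and 10.6 CPM in the other 9 libraries. Its log2 fold change was -1.64 ± 0.21 in OE-MMP28, -2.35 ± 0.22 in anti-IL-8 and -2.05 ± 0.22 in anti-VEGFA, and the highest adjusted p was 7.25e-05. CSF3R, the G-CSF receptor, fell by 0.53 in OE-MMP28 (adjusted p = 0.0406) and PLAC8 by 0.56 in anti-VEGFA (adjusted p = 0.0491). The CSF3R call held in 3 of 12 fits that left out 1 library and in 8 of 13 other settings, DESeq2 and voom among them; it was lost without any 1 of the control, OE-MMP28 or anti-IL-8 libraries (adjusted p up to 0.170). The PLAC8 call held in 2 of 12, those without OE-MMP28 replicate 2 or 3, with adjusted p up to 0.197 in the others, and in 6 of 13, and neither DESeq2 nor voom made it. The other 4 tested monocyte genes had values above 0 in OE-MMP28 against control without passing: LYZ 0.21, VCAN 0.27, CD93 0.34 and CLEC12A 0.39, with adjusted p-values from 0.371 to 0.809. The median log2 fold change of the 7 was 0.21 in OE-MMP28, -0.30 in anti-IL-8 and -0.28 in anti-VEGFA, against 0.02, -0.02 and 0.00 for all genes. CSF3R is on the neutrophil list too. The monocyte list summed to 124 to 131 CPM in control and 83.4 to 123 CPM in the other groups. Without MNDA, a sum taken after its values were seen, these ranges were 92.6 to 100.4 CPM and 75.1 to 114.9 CPM, so they overlapped.

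The levels of other cell type markers are given beside the low calgranulins. Their calls against control stand beside 3.16% of all genes called in OE-MMP28, 20.7% in anti-IL-8 and 11% in anti-VEGFA. Of 12 neutrophil markers, 8 were tested; ELANE, AZU1 and PRTN3, which encode granule proteases and azurocidin, rose in anti-IL-8 by 1.08, 1.02 and 0.83 on the log2 scale (adjusted p = 0.0120, 0.00805 and 0.0126 in edgeR's test) and in anti-VEGFA by 0.89, 0.93 and 0.77 (adjusted p = 0.0415, 0.0186 and 0.0257), each against control. In anti-IL-8 the ELANE and PRTN3 calls were each lost in 1 of 12 fits, without anti-IL-8 replicate 1 and without control replicate 3, and that of AZU1 in 0. In anti-VEGFA, ELANE held in 5 of 12 fits that left out 1 library and was not called by voom (adjusted p up to 0.133; it held without OE-MMP28 replicate 2 or 3, anti-IL-8 replicate 1 or 2, or anti-VEGFA replicate 1). AZU1 and PRTN3 held in 9 each, both being lost without control replicate 2 or 3, AZU1 also without anti-VEGFA replicate 3 and PRTN3 without anti-VEGFA replicate 2 (adjusted p up to 0.0831 and 0.118). The other 5 tested markers, CSF3R, CTSG, LTF, MMP8 and CAMP, had log2 fold changes of -0.38 to 0.14 in anti-IL-8 and -0.41 to 0.29 in anti-VEGFA without passing. The median of the 8 was 0.06 in anti-IL-8 and 0.20 in anti-VEGFA. The whole list summed to 111 to 177 CPM over the 12 libraries. Of the macrophage markers, CD14 and FCGR1A rose in OE-MMP28, and these 2 with SPI1 and TYROBP rose in anti-IL-8. In anti-VEGFA, CD14 rose and MSR1 fell by 0.56 (adjusted p = 0.0240). In OE-MMP28 against control, the means of ITGAM, CSF1R, AIF1 and MSR1 were lower without passing. Those of SPI1, TYROBP and FCER1G were higher without passing. The median of the 9 tested macrophage markers was 0.08 in OE-MMP28, 0.30 in anti-IL-8 and -0.06 in anti-VEGFA, against 0.02, -0.02 and 0.00 for all genes. FCGR1A, the high-affinity Fc receptor, had log2 fold changes of 0.72 and 0.83 (adjusted p = 0.0106 and 0.00190) and TYROBP one of 0.55 (adjusted p = 0.0464). With 1 library left out, TYROBP held in 4 of 12 fits (adjusted p up to 0.148, held without OE-MMP28 replicate 2 or 3 or anti-VEGFA replicate 1 or 2), FCGR1A in OE-MMP28 in 10 (adjusted p up to 0.0761, lost without control replicate 1 or 2) and MSR1 in 8 (adjusted p up to 0.132, lost without control replicate 2 or 3 or anti-VEGFA replicate 2 or 3). CD14 and SPI1 each stand on 2 of these lists. Of the 3 epithelial markers tested, MUC1 fell by 1.01 in OE-MMP28 (adjusted p = 0.0341), from 3.62 to 1.80 CPM, a call lost in 5 of 12 such fits, without any 1 of the control libraries or OE-MMP28 replicate 1 or 2 (adjusted p up to 0.125). The part of any of these in the S100 values was not tested.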

How the data were processed

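RNA was sequenced from 12 TAM libraries in 4 groups of 3, and samples were assigned to groups from their titles. Per the submitters' processing notes, reads were aligned with HISAT2 2.0.5 and counted with featureCounts 1.5.0-p3; the genome build and the strand setting are not given in the sources used here. The deposited table holds the authors' raw read counts per gene and their FPKM values, and gene lengths. FPKM divide counts by gene length and by a library factor of the authors. Differences in counts were tested with edgeR 4.0.16 (R 4.3.3). The filter was filterByExpr, which kept 16046 of 58735 genes, and the scaling was TMM. All 12 libraries entered a single quasi-likelihood model of group means, from which 6 comparisons were drawn, with Benjamini-Hochberg adjustment over all tested genes within each and a threshold of 0.05. The SE is the log2 fold change over the square root of its F statistic, and 95% intervals use the t quantile of the same fit. CPM use the totals of tested genes times the TMM factor; log2 CPM add a prior count of 2. The study's methods name limma and an unadjusted p of 0.05, kept here as alternatives with limma 3.58.1 and beside DESeq2 1.42.0. The step was tested on simulated counts. The S100 genes and the gene lists were chosen with earlier results of these data known. Named genes are the 7 S100 genes, at most 4 genes with the lowest adjusted p per list, 8 fixed partners and receptors, and for likeness the 3 nearest protein-coding genes with a mean of at least 10 CPM and an SD of at least 0.2. Replicates differed by more than sampling noise (chi-square over degrees of freedom 6.46 to 98.6). Counting precision and floors cover counting error only. Promoters came from RefSeq windows, figures from Python.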

Additional observations from a re-analysis of the deposited data

How the results depend on the processing

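Over 13 other settings and 12 fits that each left out 1 library, 835 of 894 log2 fold changes of the 6 tested genes kept their direction and their side of the threshold, 5 came to pass it and 54 changed sign without passing it. The number of these genes called stayed at 0 except for anti-IL-8 against control and anti-IL-8 against OE-MMP28. In the first it was 1 with no filter, beside 9.71% of all genes, and 3 with the 2 groups alone, beside 37.8%. In the second it was 0 to 1 with 1 library left out. The 1 was S100A6 without OE-MMP28 replicate 3, beside 26.1% of all genes. The cause was not tested. Signs turned in these settings. S100A6 in OE-MMP28 against control was 0.0018 with no filter and 0.0049 with the 2 groups alone. S100A10 in anti-IL-8 against OE-MMP28 was 0.0062 with the 2 groups alone, 0.064 with the mitochondrial share as a covariate, 0.0065 on log2(FPKM + 1) and 0.0067 on log2(FPKM + 0.1). In anti-VEGFA against control, the mitochondrial covariate gave -0.11 for S100A4, -0.041 for S100A6, -0.053 for S100A10 and -0.28 for S100A11, the gene length correction -0.057 for S100A4 and -0.0025 for S100A11, and library totals -0.016 for S100A4. For OE-MMP28 against control, leaving out 1 library at a time gave log2 fold changes of -0.30 to 0.12 for S100A4, -0.47 to 0.31 for S100A6 and -0.068 to 0.41 for S100A11. For anti-IL-8 against OE-MMP28, leaving out 1 library at a time gave log2 fold changes of -0.19 to 0.29 for S100A8, -0.13 to 0.20 for S100A10 and -0.10 to 0.39 for S100A11. For anti-VEGFA against OE-MMP28, leaving out 1 library at a time gave log2 fold changes of -0.087 to 0.34 for S100A4, -0.088 to 0.70 for S100A6, -0.15 to 0.96 for S100A8, -0.31 to 0.044 for S100A9, -0.39 to 0.081 for S100A10 and -0.53 to 0.16 for S100A11. For anti-VEGFA against control, leaving out 1 library at a time gave log2 fold changes of -0.077 to 0.21 for S100A4, -0.83 to 0.27 for S100A8, -0.0095 to 0.46 for S100A10 and -0.28 to 0.26 for S100A11. For anti-VEGFA against anti-IL-8, leaving out 1 library at a time gave log2 fold changes of -0.23 to 0.053 for S100A4, -0.26 to 0.86 for S100A8, -0.19 to 0.18 for S100A9 and -0.39 to 0.097 for S100A10. A fit with the replicate number as a block called 0 of these genes in all 6 comparisons, and lost the calls of SPI1 and TYROBP in anti-IL-8 and PLAC8 in anti-VEGFA, each against control; same-numbered libraries deviated together with r from -0.16 to 0.24, and 4 of 12 correlated best with their own number, so the numbers were not taken as pairs. The number of all genes called, against which these genes are read, moved more. For anti-IL-8 against OE-MMP28 it was 0 in the main test and with voom, 2259 with DESeq2, 1438 with no filter, 795 with the block, 1739 with the mitochondrial covariate and 845 with the length correction, and 4183 when OE-MMP28 replicate 3 was left out and 1079 when anti-VEGFA replicate 2 was (0 for any other library). For anti-VEGFA against OE-MMP28 it was 55, against 429, 400, 37, 310 and 159 in these 5 settings, 1 with the 2 groups alone, and 8 to 1466 with 1 library left out, highest without OE-MMP28 replicate 3. Between the antibodies it was 32, against 252, 277, 26, 176 and 86, 17 with the 2 groups alone and 3 to 126 with 1 library left out. For anti-IL-8 against control it was 3317, 6058 with the 2 groups alone and 1269 to 4331 with 1 library left out, lowest without anti-IL-8 replicate 1. For OE-MMP28 against control it was 507, and 297 to 638 with 1 library left out, and for anti-VEGFA against control 1760, and 673 to 2566, both lowest without control replicate 2. Of the calls of genes outside the 7, all against control, those of MNDA and of ANXA1 held in every fit. So did those of S100A16 in OE-MMP28 and anti-VEGFA and of LY96 in OE-MMP28. The calls of CD14, FCGR1A and AZU1 in anti-IL-8 and of CD69 in anti-IL-8 and anti-VEGFA also held in every fit that tested them. Depth limits S100A8 (9 to 57 counts) and S100A12 (0 to 4 counts).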
